A study of Mus musculus with 8 samples.

Results

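Spinal cord injury (SCI) in muscle damaged by cardiotoxin was read from 4 RNA pools of mouse gastrocnemius muscle, CDTX + SHAM and CDTX + SCI at day 2 (D2) and day 4 (D4), out of 8 pools in the series. The other 4 pools, PBS + SHAM and PBS + SCI at the same days, came from muscle injected with saline. Each pool held RNA of 3 muscles and each condition had 1 pool at each day, so a comparison at one day set 1 pool against 1 pool and no spread between mice could be measured. The mice were female wild-type C57Bl/6, 6 to 8 weeks old. All mice had surgery, either a transection of the thoracic spinal cord (SCI) or the same approach without it (SHAM). All 4 CDTX pools shared the injection of 12 µM cardiotoxin (CDTX), a snake venom toxin that lyses myofibers, into the left hindlimb. The right hindlimb of the same mice received saline, so a CDTX pool and a PBS pool of the same surgery and day could come from the same animals. A panel of 755 LNA RT-qPCR assays gave 1 quantification cycle (Cp) per assay and pool. A Cp that is earlier by 1 cycle stands for about a doubling of the miRNA, and 36 marks the end of the recorded range. Of 688 miRNAs, 129 came up by cycle 32 in each CDTX pool and were kept, and 116 of them did so in all 8 pools. Relative expression is the level of a miRNA over the geometric mean of its 3 references, miR-125b-5p, miR-23b-3p and miR-24-3p, with each cycle taken as a factor of 2. The shift with SCI is the log2 ratio of relative expression in CDTX + SCI over CDTX + SHAM of the same day.

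A miRNA is a short RNA that guides an Argonaute protein to messenger RNAs, mainly through its seed, the bases next to its 5′ end, and lowers their translation and stability. In skeletal muscle the myomiRs (miR-1, miR-133, miR-206 and others) are made by myofibers and their progenitors, miR-142 and miR-223 are made by blood leukocytes, and miR-199a and miR-214 are made by fibroblast-like stromal cells. Cardiotoxin is followed by necrosis and leukocyte entry, then by proliferation of muscle and fibro-adipogenic progenitors and formation of new fibers. When the spinal cord is also injured, such muscle can form neurogenic heterotopic ossifications, that is, bone within the muscle. The comparison asks which miRNAs differ with SCI in the damaged muscle at the 2 early days.

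The mature sequences of the miRNAs that carried the results are given below where RefSeq (build GRCm38.p6) lists them, with the seed (bases 2 to 8 from the 5′ end) in capitals. The first pair, let-7d-3p from chr13:48536024-48536045 (minus strand) and miR-455-3p from chr4:63256904-63256924 (plus strand), were lower with SCI on both days. The next 6 were lower at D4 by at least 0.5 on the log2 scale and are shown because they come from 2 known polycistronic loci or had the lowest ratios of that day. miR-214-3p and both arms of miR-199a are cut from transcripts of the Dnm3os locus on chromosome 1 (miR-214-3p at chr1:162223438-162223459, plus strand), with a further miR-199a copy on chromosome 9. miR-127-3p (chr12:109592888-109592909) and miR-411-5p (chr12:109710190-109710210) lie in the imprinted Dlk1-Dio3 region, and miR-1900 at chr9:21032261-21032282 had the lowest ratio of all at D4. The last pairs share their seeds, miR-25-3p with miR-92a-3p and miR-15a-5p with miR-15b-5p, and are shown so that members of one seed can be read against each other.
let-7d-3p: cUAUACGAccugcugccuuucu
miR-455-3p: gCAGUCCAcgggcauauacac
miR-214-3p: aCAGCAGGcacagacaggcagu
miR-199a-3p: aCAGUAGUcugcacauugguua
miR-199a-5p: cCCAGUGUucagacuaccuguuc
miR-127-3p: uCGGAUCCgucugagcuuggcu
miR-411-5p: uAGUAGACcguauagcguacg
miR-1900: gGCCGCCCucucugguccuuca
miR-25-3p: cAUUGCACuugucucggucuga
miR-92a-3p: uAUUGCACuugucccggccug
miR-15a-5p: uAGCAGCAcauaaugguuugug
miR-15b-5p: uAGCAGCAcaucaugguuuaca

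The 3 references were close between the surgeries at D2, while at D4 all 3 came earlier with SCI. On their scale the mean log2 ratio of the 129 kept miRNAs was -0.06 at D2 and -0.30 at D4. In CDTX + SHAM D2, CDTX + SCI D2, CDTX + SHAM D4 and CDTX + SCI D4, the Cp of miR-24-3p was 24.98, 24.83, 24.78 and 24.39. That of miR-23b-3p was 26.85, 26.77, 26.84 and 26.41, and that of miR-125b-5p was 24.80, 24.94, 25.22 and 24.85. All 3 were assays of the first of the 2 plates of the set, called panel 1 here. The only technical error that the tables allowed came from 6 miRNAs measured by a second assay within the Cp limit of 32. Their 12 pairs of ratios differed by a root mean square of 0.29 on the log2 scale and by at most 0.55. This error covers the assay, and for miR-532-5p also the plate, but neither the pool nor the mouse. Of the 6 miRNAs, only miR-532-5p had its assays on different plates, and it gave the difference of 0.55. Markers of the labelled tissue were present, with miR-133a-3p of striated muscle at a Cp of 22.58, 22.29, 22.95 and 22.49 in the 4 pools, while miR-122-5p of liver gave no signal in any of them. Of 4 neuronal miRNAs measured, 2 (miR-9-3p and miR-129-5p) gave no signal and 0 were kept, and the summed relative expression of the list was 0.00946, 0.00421, 0.00213 and 0.00141 in the same order.

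The SCI shifts of D2 and D4 did not give the same picture, and few miRNAs shifted on both days. At D2 the median log2 ratio over the 129 miRNAs was -0.13, with an SD of 0.50 across miRNAs, and at D4 it was -0.20 with an SD of 0.42. A size rule of 0.5 on the log2 scale, fixed without a test because each side was 1 pool, was met at D2 by 11 higher (8.53% of the miRNAs kept) and 20 lower miRNAs (15.5%). At D4 it was met by 1 higher (0.775%) and 35 lower miRNAs (27.1%). A change of at least 2-fold was reached by 2 higher (1.55%) and 0 lower miRNAs at D2, and by 0 higher and 9 lower miRNAs (6.98%) at D4. Across the 129 miRNAs the ratios of the days were correlated with Pearson's r = 0.10 and Spearman's rho = 0.07, and 78 had the same sign on both days. These points share their pools and references and are described only. By class, 3 miRNAs were lower on both days (2.33%), 0 were higher on both days, 3 were higher at D2 and lower at D4 (2.33%), 8 were higher (6.2%) and 17 lower (13.2%) at D2 only, 1 was higher (0.775%) and 29 lower (22.5%) at D4 only, and 68 met the rule on neither day. With the global mean Cp of the kept miRNAs in place of the references, the mean ratio moved by 0.06 at D2 and 0.30 at D4, and 15 miRNAs were higher and 11 lower at D2, and 10 higher and 16 lower at D4. The split of D2 also turned on single references, from 4 higher and 33 lower with miR-24-3p alone to 21 higher and 8 lower with miR-125b-5p alone, and was 16 against 9 in the deposited normalized table.

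**Figure D1:**
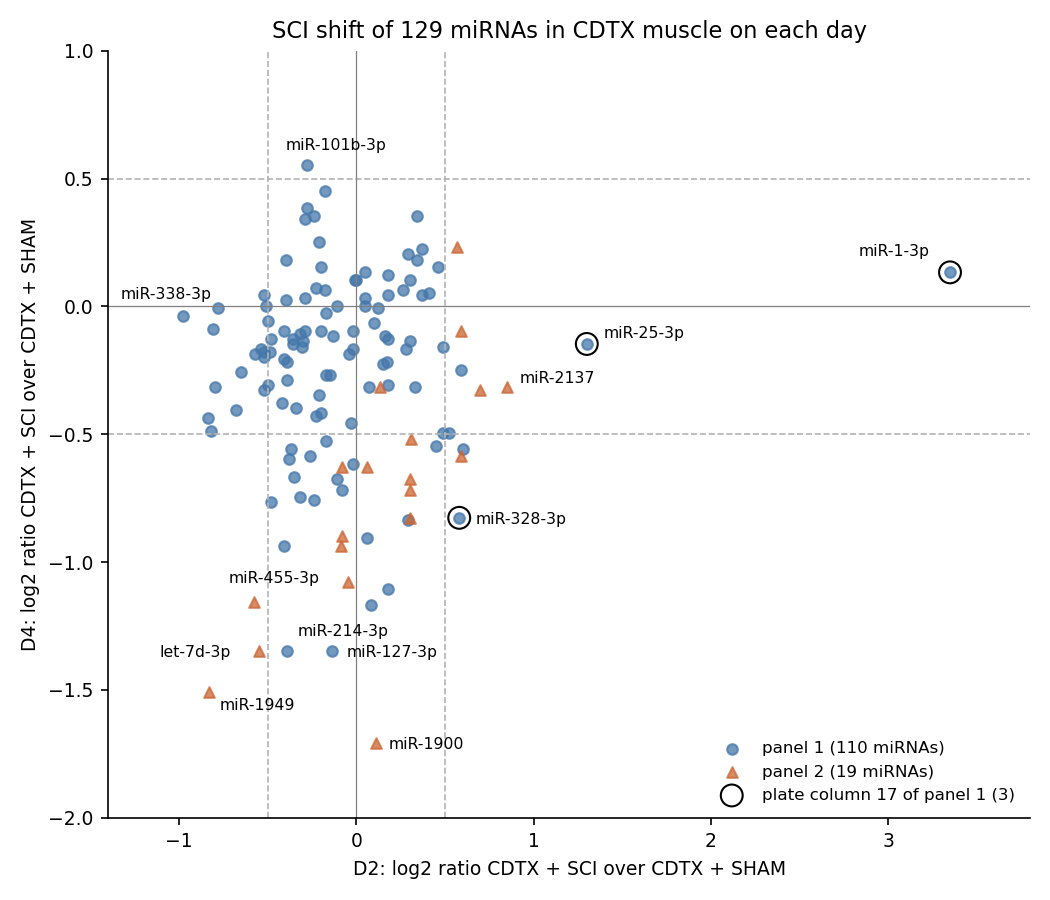
Log2 ratio of CDTX + SCI over CDTX + SHAM at D2 (x axis) against D4 (y axis) for the 129 miRNAs, with panel 1 assays as circles, panel 2 assays as triangles, assays of plate column 17 of panel 1 ringed, and the size rule of 0.5 as dashed lines. The 3 miRNAs past the rule in the lower left are panel 2 assays, and miR-1-3p lies alone on the right with 3.35 at D2 and 0.13 at D4.

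The 3 miRNAs lower with SCI on both days were miR-1949, let-7d-3p and miR-455-3p. miR-1949, a rodent miRNA, had a relative expression of 0.0601 in CDTX + SHAM D2 and 0.0338 in CDTX + SCI D2, and of 0.0516 in CDTX + SHAM D4 and 0.0182 in CDTX + SCI D4. Both SCI pools were below both SHAM pools, with log2 ratios of -0.83 and -1.51 (0.563-fold and 0.352-fold). Its mean shift of -1.17 (SE 0.33) passed the test over both days (limma, adjusted p = 0.04). let-7d-3p, the passenger arm of the let-7d hairpin, had a relative expression of 0.0815 and 0.0557 at D2 and of 0.139 and 0.0547 at D4, SHAM first. The 2 SCI values were nearly equal and lay below both SHAM values, with log2 ratios of -0.55 and -1.35. miR-455-3p, which is known from cartilage and lies in an intron of the collagen gene Col27a1, was at 0.0189 and 0.0126 at D2 and at 0.0509 and 0.0228 at D4. Its log2 ratios were -0.58 and -1.16, and its groups overlapped, since CDTX + SCI D4 was above CDTX + SHAM D2. The mean shifts of -0.95 for let-7d-3p and -0.87 for miR-455-3p missed the threshold (limma, adjusted p = 0.22 and 0.263).

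In that test, a limma fit with a day and an SCI term over the 4 pools, 2 of the 129 miRNAs (1.55%) had an adjusted p under 0.05 and 8 had an unadjusted p under 0.05. The fit has 1 residual degree of freedom, and limma gave every miRNA the same standard error of 0.33. Its moderation replaced the spread of each miRNA between days by one common value. The weight of that value, called the prior degrees of freedom, was infinite here. With a finite weight the same ratio of shift to SE gives a larger p. The other miRNA called was miR-1-3p, with a mean shift of 1.74 (adjusted p = 8.53e-05) although its ratio was 3.35 at D2 and 0.13 at D4, so that this call was not a shift shared by the days. With the spread of each miRNA kept as its own, 0 miRNAs passed and 4 had an unadjusted p under 0.05. A test of a single miRNA by exact permutation within the 2 days could not give a p below 0.5. miR-1949 lost the call with the global mean (limma, adjusted p = 0.118, mean shift -0.99) and with each panel centred on its own mean (adjusted p = 0.573, mean shift -0.87). In limma it also lost the call with miR-24-3p alone (adjusted p = 0.492), with miR-125b-5p alone (0.881), in the deposited normalized table (0.794), with a Cp limit of 34 (0.162) or none (0.247), with no day term (0.997), with a variance trend (0.0647) and with no moderation (0.768). It kept the call with miR-23b-3p alone (limma, adjusted p = 0.0231) and with the second assays (0.0363). The prior degrees of freedom stayed infinite with the global mean, the Cp limits and the trend, but were 2.95 with each panel centred. They were 2.91 with miR-24-3p alone, 4.07 with miR-125b-5p alone and 5.19 in the deposited table. In that order, miR-1949 had mean shifts of -0.87, -1.225, -1.07 and -1.15, with SEs of 0.17, 0.25, 0.31 and 0.31.

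The panel an assay was run on moved with these results. The kept miRNAs were 110 assays of panel 1 and 19 of panel 2, and all 3 miRNAs lower on both days, as well as miR-1900, were in panel 2. At D2 the median log2 ratio was -0.18 in panel 1 and 0.13 in panel 2, whereas at D4 it was -0.16 in panel 1 and -0.68 in panel 2. At D4, 21 of the 110 miRNAs of panel 1 (19.1%) and 14 of the 19 of panel 2 (73.7%) were lower by at least 0.5. Panel 2 assays had later Cp values (median 30.22 against 29.29), and among assays with a mean Cp of 28 or later the medians at D4 were -0.21 for 75 miRNAs of panel 1 and -0.70 for 18 of panel 2. Over the miRNAs kept in all 8 pools, the mean Cp of panel 2 lay 1.54 cycles after that of panel 1 in CDTX + SHAM D2, 1.33 in CDTX + SCI D2, 1.08 in CDTX + SHAM D4 and 1.58 in CDTX + SCI D4. The 4 PBS pools ranged from 1.33 to 1.75.

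A few miRNAs were measured on both panels. The assay named for mouse miR-350-3p (panel 1) gave log2 ratios of -0.34 at D2 and -0.40 at D4, and the assay named for rat miR-350 (panel 2) gave 0.59 and -0.59. For miR-532-5p, of the Clcn5 intronic cluster, panel 1 gave -0.82 and -0.49 and panel 2 gave -0.27 and -0.91. With miR-324-3p and miR-351-5p, whose Cp values ran past 32, the ratio of panel 2 was above that of panel 1 at D2 in 4 of 4 cases, by 0.32 to 0.93, and below it at D4 in 3 of 4 cases. Whether the panel or the choice of miRNAs on it accounts for the difference between the medians was not tested. Centred within its panel, miR-1949 had ratios of -0.96 at D2 and -0.77 at D4, let-7d-3p of -0.68 and -0.61, and miR-455-3p of -0.71 and -0.42. All 3 were thus lower on both days on that scale too, and miR-1949 and let-7d-3p still met the size rule on both. Within panel 2 the ratios of D2 and D4 were correlated with r = 0.75 (rho = 0.79) across its 19 miRNAs, against r = 0.08 (rho = 0.11) across the 110 of panel 1, as a description of assays that share plates and pools.

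**Figure D2:**
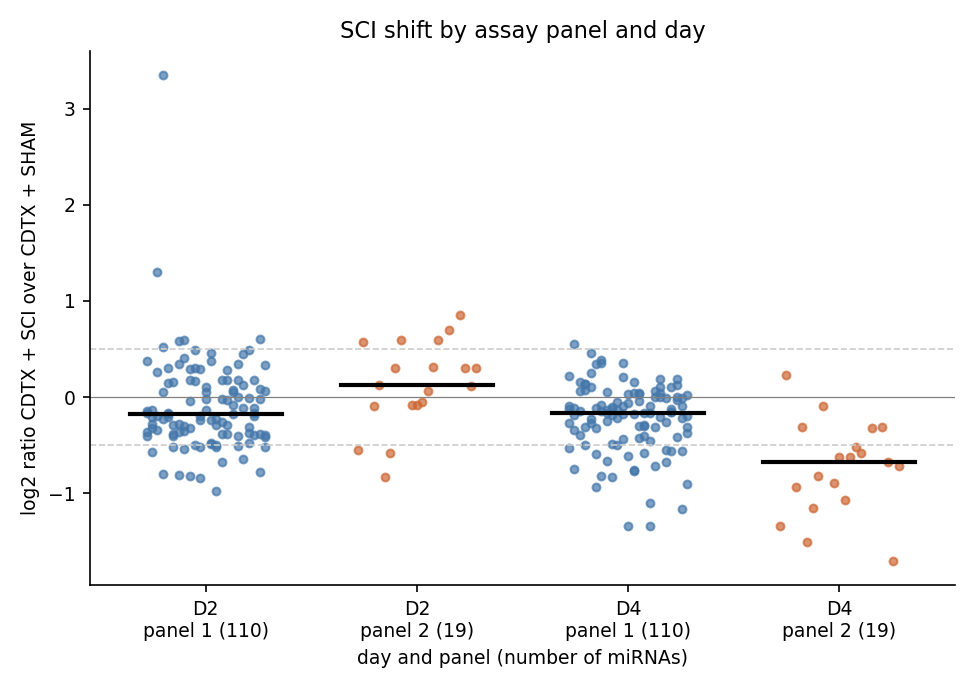
Log2 ratio of CDTX + SCI over CDTX + SHAM (y axis) of each kept miRNA by day and panel (x axis), with the median of each group as a black bar. The medians of panel 1 are -0.18 at D2 and -0.16 at D4, and those of panel 2 are 0.13 and -0.68.

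On the scale of the references the shifts of D4 alone were nearly all downward, 29 miRNAs against 1, and 10 of the 29 were panel 2 assays. With the global mean, 13 were lower and 9 higher at D4 alone. The Dnm3os miRNAs were lower together. miR-214-3p, which in osteoblasts is known to repress the osteogenic factor ATF4, had a relative expression of 0.331 in CDTX + SHAM D2, 0.252 in CDTX + SCI D2, 0.861 in CDTX + SHAM D4 and 0.338 in CDTX + SCI D4. CDTX + SHAM D4 stood above the other pools, and the log2 ratios were -0.39 at D2 and -1.35 at D4 (0.393-fold). A second miR-214-3p assay gave -0.33 and -1.30. miR-199a-3p was at 0.352, 0.265, 0.809 and 0.422 in the same order, with ratios of -0.41 and -0.94. miR-199a-5p was at 0.0671, 0.0568, 0.227 and 0.135, with ratios of -0.24 and -0.76. miR-214-5p, of panel 2, had ratios of -0.09 and -0.94. All 4 members kept were thus lower by at least 0.5 at D4, where 27.1% of all miRNAs were, and 0 at D2, and their median at D4 was -0.94 beside -0.20 for all miRNAs. The median was -0.64 with the global mean and -0.63 with each panel centred. On the last scale the ratio of miR-214-3p was -1.13 and that of miR-214-5p was -0.20.

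The Dlk1-Dio3 miRNAs, which are made from one long maternal transcript and are high in embryonic and regenerating muscle, were lower at D4 in part. Of 42 members measured, 9 were kept, and 5 were lower and 0 higher by at least 0.5 at D4, beside 27.1% of all miRNAs lower, with a median of -0.83. At D2 the median was 0.06, with 1 member higher and 0 lower. miR-127-3p was at 0.0597 in CDTX + SHAM D2, 0.0542 in CDTX + SCI D2, 0.194 in CDTX + SHAM D4 and 0.0762 in CDTX + SCI D4, with ratios of -0.14 and -1.35. miR-411-5p was at 0.0446, 0.0472, 0.105 and 0.0469, with ratios of 0.08 and -1.17. In both, CDTX + SHAM D4 was the one high pool and CDTX + SCI D4 lay within 1.5-fold of the D2 pools. The kept members did not all shift alike at D4. miR-136-5p was at 0.00, and at -0.25 by its second assay, while miR-136-3p, the other arm on panel 2, was at -0.83. miR-434-3p was at -0.16 and its other arm, miR-434-5p, at -0.50. Centred within panels, the median of the 9 at D4 was -0.16.

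Other miRNAs lower at D4 alone lie elsewhere in the genome. miR-1900 had the lowest ratio of the day. It was at 0.0114 and 0.0123 at D2 and at 0.0635 and 0.0195 at D4, SHAM first, and its Cp in CDTX + SHAM D2 was exactly at the limit of 32. Its ratios were 0.11 at D2 and -1.71 at D4 (0.306-fold), and -0.97 at D4 within its panel. miR-574-3p, counted by the study as osteo-suppressive, was at 0.0169, 0.0192, 0.0333 and 0.0155, with ratios of 0.18 and -1.11. miR-199b-5p, of panel 2, had ratios of -0.05 and -1.08, and -0.34 at D4 within its panel. Members of the let-7 family share a seed and restrain proliferation. Of the 8 kept, 3 were lower by at least 0.5 at D4, beside 27.1% of all miRNAs. These were let-7b-5p (-0.67), let-7e-5p (-0.60) and let-7c-5p (-0.59). With the global mean they were at -0.37, -0.30 and -0.29, short of the rule. The hypoxia-induced miR-210-3p had ratios of 0.29 at D2 and -0.84 at D4. The single miRNA higher at D4 was miR-101b-3p, a repressor of the histone methyltransferase Ezh2. It was at 0.0568, 0.0468, 0.0309 and 0.0453, with CDTX + SHAM D4 as the low pool and ratios of -0.28 and 0.55.

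**Figure D3:**
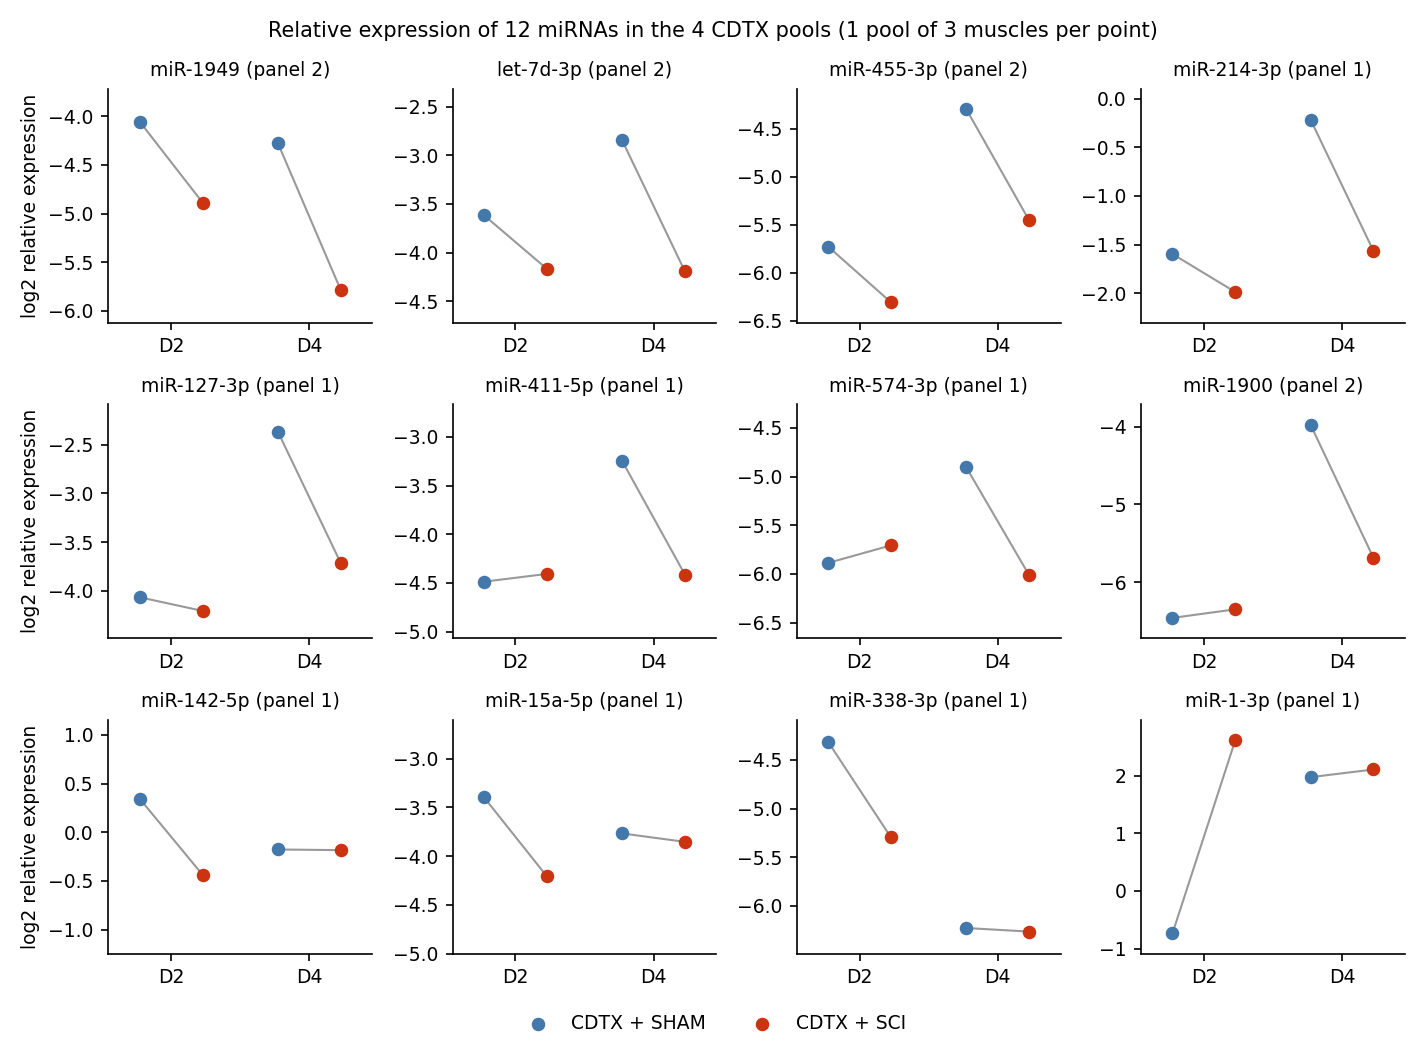
Log2 relative expression (y axis, each plot with its own range) of 12 miRNAs in the CDTX + SHAM (blue) and CDTX + SCI (red) pools at D2 and D4, 1 pool of 3 muscles per point and lines between pools of one day. miR-214-3p, miR-127-3p, miR-411-5p, miR-574-3p and miR-1900 are high in CDTX + SHAM D4 only, while miR-142-5p, miR-15a-5p and miR-338-3p differ between the surgeries at D2 only.

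At D2 alone 17 miRNAs were lower with SCI, all of them panel 1 assays. Leukocyte miRNAs were among the lowest. miR-142-5p, made throughout the blood lineage, was at 1.27 in CDTX + SHAM D2, 0.739 in CDTX + SCI D2, 0.885 in CDTX + SHAM D4 and 0.881 in CDTX + SCI D4. CDTX + SHAM D2 was the high pool, with ratios of -0.78 at D2 and -0.01 at D4. miR-142-3p, the other arm, had ratios of -0.68 and -0.41. miR-146b-5p, a feedback inhibitor of innate immune signaling, had ratios of -0.80 and -0.32, but its second assay, with Cp values up to 32.29, gave 0.06 and 0.00. Of 6 leukocyte miRNAs kept, 3 were lower at D2 and 1 at D4, beside 15.5% and 27.1% of all miRNAs, with medians of -0.54 and -0.16, while miR-150-5p of lymphocytes was at 0.00 and 0.10. The median of the list at D4 was 0.14 with the global mean. Summed over the 7 leukocyte miRNAs measured, relative expression was 3.23 and 2.25 at D2 and 1.83 and 1.88 at D4. In a whole muscle, fewer cells of a type and less of the RNA per cell cannot be told apart.

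The remaining miRNAs lower at D2 alone had other known roles. miR-338-3p had the lowest ratio of the day. It was at 0.0502 and 0.0254 at D2 and at 0.0133 and 0.0130 at D4, with ratios of -0.98 and -0.04. Its second assay, with Cp values up to 32.83, gave -0.15 and 0.51. miR-484 had ratios of -0.84 and -0.44. miR-532-5p, whose assays on the 2 panels were given above, was at -0.82 on panel 1. miR-15a-5p and miR-15b-5p, which carry the same seed and restrain the cell cycle, had ratios of -0.81 and -0.52 at D2 and of -0.09 and 0.04 at D4. miR-16-5p and miR-322-5p, which RefSeq lists with that seed as well, were at -0.11 and 0.28 at D2. The 5 kept miRNAs of the miR-15/16 family list, which also holds miR-195-5p, ran from -0.81 to 0.59 at D2. miR-34a-5p, a target of p53, had ratios of -0.65 and -0.26. With each panel centred, 13 miRNAs were higher and 11 lower by at least 0.5 at D2, and 8 were higher and 14 lower at D4.

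At D2 alone 8 miRNAs were higher with SCI, and 4 of them were panel 2 assays. On panel 2 these were miR-2137 (0.85), miR-29a-5p (0.70), miR-30e-3p (0.59) and miR-30a-3p (0.57), with ratios of -0.32, -0.33, -0.10 and 0.23 at D4. The last 2 are the 3′ arms of miR-30 hairpins and share the seed UUUCAGU. On panel 1, miR-195-5p had ratios of 0.59 and -0.25 and miR-434-5p of 0.52 and -0.50. The remaining 2 were miR-1-3p and miR-25-3p.

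miR-1-3p, the most abundant myomiR of adult fibers, was at 0.600 in CDTX + SHAM D2, 6.12 in CDTX + SCI D2, 3.93 in CDTX + SHAM D4 and 4.31 in CDTX + SCI D4. One pool, CDTX + SHAM D2, was low, and the ratios were 3.35 at D2 (10.2-fold) and 0.13 at D4. A second miR-1-3p assay, with later Cp values of 32.92, 32.84, 33.55 and 33.40, gave 0.05 and -0.25. miR-133a-3p, which is transcribed with miR-1, was at 7.80, 9.34, 6.33 and 6.62, with ratios of 0.26 and 0.06. miR-25-3p, of the miR-106b cluster in an intron of Mcm7, was at 0.0658, 0.162, 0.205 and 0.185, again with CDTX + SHAM D2 as the one low pool and ratios of 1.30 and -0.15. The other members of its cluster, miR-106b-5p and miR-93-5p, had ratios of -0.29 and -0.36 at D2. miR-92a-3p, of the same seed, was at -0.08 at D2 and -0.63 at D4.

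Both assays stood in plate column 17 of panel 1, reading the row keys of the table as panel and well. Of 16 assays in that column, 10 gave a signal in a D2 pool, and 7 of these were later in CDTX + SHAM D2 than in CDTX + SCI D2. let-7f-5p had a Cp of 35.82 in CDTX + SHAM D2 against 27.71, 27.58 and 27.12 in the other CDTX pools and 26.22 to 26.88 in the PBS pools, and it was not kept for that reason. The 7 other let-7 members and miR-98-5p had ratios between -0.50 and -0.26 at D2. Taking assays with a Cp of at most 34 in the other 3 CDTX pools, the 6 assays of the column lay a median of 1.32 cycles later in CDTX + SHAM D2 than the median of those pools. The other 110 sets of a plate column and a CDTX pool with at least 4 such assays had medians from -1.32 to 1.03. The part of the plate column in the ratios of miR-1-3p, miR-25-3p and miR-328-3p was not tested. Without that column, miR-1949 was the 1 miRNA past the test over both days (limma, adjusted p = 0.013).

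**Figure D4:**
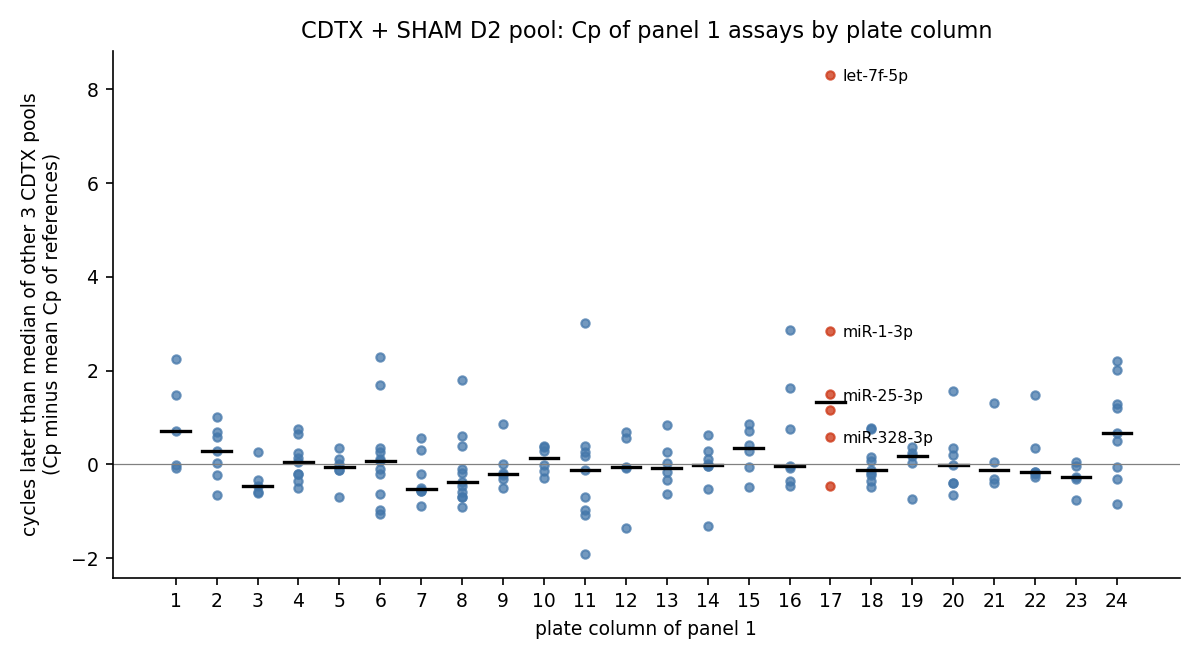
Cycles by which each panel 1 assay of the CDTX + SHAM D2 pool came later than the median of the other 3 CDTX pools (y axis, Cp minus the mean Cp of the references), by plate column (x axis), for assays with a Cp of at most 34 in those 3 pools. Points are assays, black bars are column medians, and column 17 (red) has a median of 1.32 cycles with let-7f-5p at the top.

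The 3 miRNAs of opposite direction, higher at D2 and lower at D4, were miR-328-3p, miR-350 and miR-196b-5p. miR-328-3p was at 0.0425 and 0.0635 at D2 and at 0.0832 and 0.0469 at D4, with ratios of 0.58 and -0.83, and it is an assay of plate column 17. miR-196b-5p, which lies in the HoxA cluster, was at 0.0174 and 0.0263 at D2 and at 0.0313 and 0.0213 at D4, with ratios of 0.60 and -0.56. The pools of each surgery overlapped in both. The third, miR-350, was the assay of panel 2 whose panel 1 counterpart gave -0.34 and -0.40, and with each panel centred its ratio at D4 was 0.15 rather than -0.59. Of the 3, only miR-328-3p stayed in the class on that scale.

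The difference between the days was tested in a limma fit over all 8 pools with a separate SCI term for each day in CDTX muscle, for the 116 miRNAs kept in all of them. Its 1 residual degree of freedom comes from the PBS pools, and the fit assumes that CDTX pools vary like these. It called 2 miRNAs (1.72%), and 19 had an unadjusted p under 0.05. The shift of miR-1-3p at D4 minus that at D2 was -3.22 (SE 0.47, adjusted p = 5.41e-08), and that of miR-1900 was -1.82 (SE 0.47, adjusted p = 0.0115). Here too the prior degrees of freedom were infinite and every miRNA had the same SE. With each panel centred they were 2.44, so that the spread of each miRNA counted more. On that scale 0 were called and 16 had an unadjusted p under 0.05. miR-1-3p was at -3.06 (SE 0.40, limma, adjusted p = 0.321) and miR-1900 at -0.96 (SE 0.24, adjusted p = 0.356). The estimate of miR-1-3p thus moved little and its SE was smaller, while the weight of the common value fell. None of the Dnm3os or Dlk1-Dio3 miRNAs passed, so their ratios of D4 were not shown to differ from those of D2. On simulated data this fit recovered 0 of 30 differences of 1 on the log2 scale and 29 of 30 differences of 2, with 2 false calls at the latter size. The simulated noise was independent, alike for all miRNAs and without offsets of panels or plate columns, so recovery in the real pools may differ. A miss therefore does not show that the days were equal.

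Against uninjured muscle, the SCI shift over both days in CDTX muscle minus that in PBS muscle passed the threshold for 0 of 116 miRNAs in limma, and 3 had an unadjusted p under 0.05, namely miR-1-3p (2.06, SE 0.82), miR-338-3p (-0.95, SE 0.39) and miR-532-5p (-0.75, SE 0.32), all with an adjusted p of 0.97. miR-1949 was not among the 116 miRNAs within cycle 32 in all 8 pools. At that limit neither this test nor that of the day difference covered it. In PBS muscle let-7d-3p had ratios of 0.01 at D2 and -0.50 at D4, beside -0.55 and -1.35 in CDTX muscle, and the difference over both days was -0.70 (SE 0.37). miR-455-3p had -0.04 and -0.42 in PBS muscle, and the difference was -0.64 (SE 0.34). The intervals of these differences were thus wide, and no shift particular to CDTX muscle was detected. The size of shift that this fit could find was not simulated. The fit treated CDTX and PBS pools as independent, although they could come from the same animals.

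The lists that the study named osteogenic and osteo-suppressive were partly picked from these same pools, so their counts are no independent evidence of a direction. Of 3 osteogenic miRNAs, miR-21-5p was at 3.59 in CDTX + SHAM D2, 2.42 in CDTX + SCI D2, 4.64 in CDTX + SHAM D4 and 4.07 in CDTX + SCI D4, with ratios of -0.57 and -0.19. miR-20a-5p had ratios of -0.51 and 0.00, and miR-199a-5p was given above. Of 13 osteo-suppressive miRNAs, 0 were higher on either day, 2 were lower at D2 (miR-142-3p and miR-206) and 4 were lower at D4 (miR-214-3p, miR-574-3p, miR-199a-3p and miR-146a-5p), beside 15.5% of all miRNAs lower at D2 and 27.1% at D4. Their medians of -0.37 at D2 and -0.18 at D4 stood beside -0.13 and -0.20 for all miRNAs. miR-17-5p was the highest member at D4, with relative expression of 0.141 and 0.124 at D2 and of 0.125 and 0.172 at D4 and ratios of -0.18 and 0.45. miR-223-3p, of myeloid cells, was at 1.54, 1.17, 0.689 and 0.783, with ratios of -0.40 and 0.18 and of -0.33 and 0.56 by its second assay. Among the rest, miR-16-5p, miR-30e-5p, miR-93-5p, miR-143-3p and miR-378a-3p had ratios between -0.41 and 0.41 at D2 and between -0.21 and 0.05 at D4. miR-146a-5p, a brake on innate immune signaling, had ratios of -0.37 and -0.56.

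Of the 4 myomiRs, miR-206, which marks new fibers and activated progenitors, was at 0.739 in CDTX + SHAM D2, 0.515 in CDTX + SCI D2, 4.07 in CDTX + SHAM D4 and 3.60 in CDTX + SCI D4. The days differed far more than the surgeries, whose ratios were -0.52 and -0.18. miR-378a-3p, of mitochondrial metabolism, had ratios of 0.41 and 0.05. No myomiR met the rule at D4, and miR-206 was the only one lower at D2.

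Among the other lists the members stayed close together in some families. All 8 members kept of the let-7 family, miR-98-5p included, were below 0 on both days, from -0.50 to -0.26 at D2 and from -0.67 to -0.13 at D4, but with the global mean their median was 0.04 at D4, so that this direction depends on the scaling there. The 7 miR-30 miRNAs had medians of 0.05 and 0.13, and the 5 of the miR-23/27/24 clusters, which hold 2 of the references, of 0.05 and -0.01. In the endothelial, smooth muscle and erythroid lists, miR-126-3p (0.30 and 0.10), miR-145-5p (0.37 and 0.04) and miR-486-5p (0.18 and 0.04) did not meet the rule. Members of these lists past the Cp limit could differ from them. miR-126-5p of the endothelial list had a ratio of 0.92 at D2 (Cp 32.07 and 31.12, SHAM first). miR-144-3p of the erythroid list had 0.77 at D4 (Cp 32.22 and 31.05), but was later with SCI at D2 (Cp 31.03 and 31.49). Of 3 Clcn5 miRNAs kept, 2 were lower at D4, beside 27.1% of all miRNAs, with a median of -0.63. With each panel centred the median was -0.27, and miR-532-3p of panel 2, one of the 2, was at 0.11. Of the 15 lists with at least 3 members kept, 3 had a median below that of all miRNAs on both days.

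**Figure D5:**
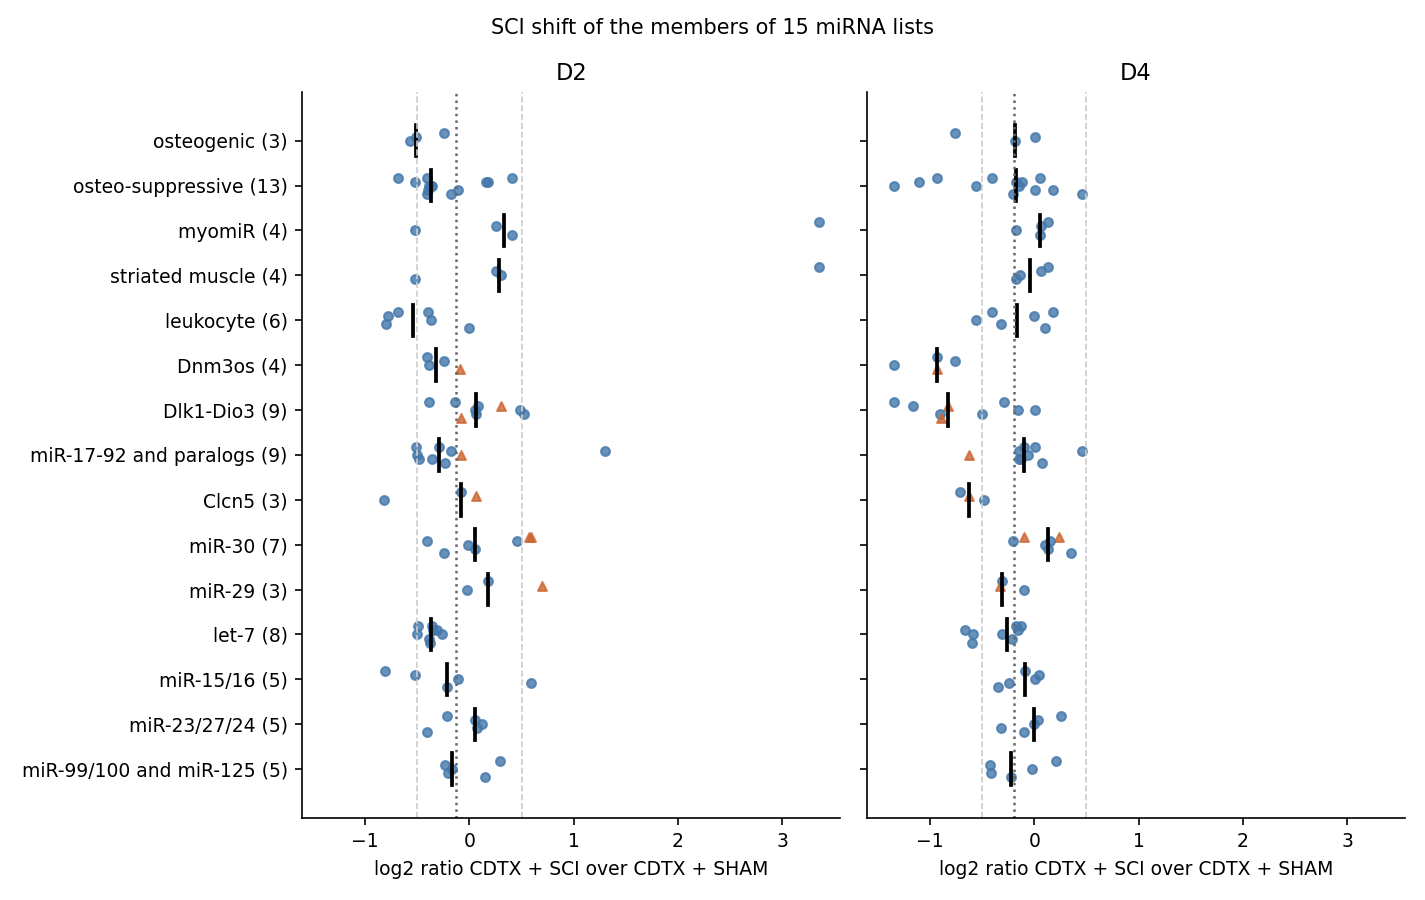
Log2 ratio of CDTX + SCI over CDTX + SHAM (x axis) at D2 (left) and D4 (right) for the kept members of 15 lists (y axis, number kept in parentheses), panel 1 as circles and panel 2 as triangles. Black bars are list medians, the dotted line is the median of all 129 miRNAs and dashed lines mark 0.5; the Dnm3os median is -0.32 at D2 and -0.94 at D4.

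Both arms of 12 hairpins were kept. In the 3 hairpins with both arms on panel 1 (miR-142, miR-199a and miR-434) the arms differed by a root mean square of 0.12 at D2 and 0.32 at D4. In the 9 with an arm on each panel they differed by 0.57 at D2 and 0.57 at D4, and the panel 2 arm had the higher ratio at D2 in 7 of 9 and the lower one at D4 in 6 of 9. The largest gap was that of let-7d at D4, where let-7d-5p (panel 1) had a ratio of -0.22 and let-7d-3p (panel 2) of -1.35. In miR-378a the 5′ arm (panel 2) was at -0.72 and the 3′ arm (panel 1) at 0.05 at D4.

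The Cp limit in all 4 pools left out 28 miRNAs that were within it in both D4 pools, and 8 of the 28 were panel 2 assays. At D4, 17 of the 28 were lower and 0 higher by at least 0.5 with SCI (median -0.67), beside 27.1% of the kept miRNAs lower. Another 8 miRNAs were within the limit in both D2 pools only. Of these, 1 was lower and 0 higher at D2, beside 15.5% of the kept miRNAs lower. These miRNAs were chosen by a low level at the other day and are given as counts only.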

How the data were processed

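By the study's methods, RNA of gastrocnemius muscle was reverse transcribed and measured by SYBR Green qPCR on LNA miRNome plates (panels I and II). The authors deposited Cp values, an un-normalized log2 scale running downward, and a table of the ratio to reference miRNAs within each pool, used here as an alternative. A further table, of fold values against 1 pool, was not used. Row keys were read as panel and well. The table has 755 assays, of which 3 small nuclear RNAs and 64 second assays served only as checks. Members, lists and the size rule were chosen with earlier results of these data known. Relative expression used the 3 references of the methods, for miRNAs within cycle 32 in each CDTX pool, and limma 3.58.1 (R 4.3.3) with Benjamini-Hochberg adjustment, checked on simulated data. No p-value rests on replicate pools. In the test over both days the error is the disagreement of the SCI ratio between the days in CDTX muscle. For the day difference it is that disagreement in PBS muscle, and against PBS muscle it is both. Depth is unknown for qPCR, and Cp values near 32 rest on few template copies. 93 of the 129 miRNAs matched a RefSeq sequence by name. The miRNAs named are those past a test, the largest of each class, the study's lists, the ends of the other lists and second assays, and miR-210-3p, let-7c-5p, let-7e-5p, miR-434-5p, miR-136-5p, miR-136-3p, miR-15b-5p, miR-214-5p, miR-378a-5p, let-7d-5p, let-7f-5p, miR-106b-5p, miR-126-5p, miR-144-3p, miR-350-3p, miR-324-3p and miR-351-5p were added after their values were seen. Alternatives were other normalizations, Cp limits, second assays, size rules of 0.3 and 1, and other fits. Centring each panel, leaving out plate column 17 and fitting without moderation were added after seeing the data.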

Additional observations from a re-analysis of the deposited data

Results flagged for a closer look

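The 3 results below were marked for a second look, and no explanation of them was tested. The shift of miR-1-3p with SCI differed between the days, by -3.22 at D4 minus D2 on the log2 scale (limma, adjusted p = 5.41e-08), and by -3.06 with each panel centred on its own mean (limma, adjusted p = 0.321). Its second assay gave 0.05 at D2 and -0.25 at D4, but with Cp values of 32.84 to 33.55, past the limit of 32. Those of the first assay ran from 22.90 to 26.28. The shift of miR-1900 differed as well, by -1.82 (limma, adjusted p = 0.0115), and by -0.96 with each panel centred (limma, adjusted p = 0.356). For both miRNAs the prior degrees of freedom of limma were infinite in the first fit and 2.44 with each panel centred. let-7f-5p, which the Cp limit left out, gave a signal in CDTX + SCI D2 that its control pool nearly lacked, with a log2 ratio of 8.08 from Cp values of 27.71 and 35.82, and its assay stands in the same plate column as that of miR-1-3p.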

How the results depend on the processing

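No condition had a replicate to leave out. The test over both days paired the pools by day. No fit with a replicate block was made, because the labels give no replicate numbers. Of 477 recomputed ratios of named miRNAs past the size rule, 449 moved by less than the error between assays. Another 25 moved by more and 3 changed sign. The last 3 were at D4 with each panel centred, namely miR-350 (0.15), miR-92a-3p (0.11) and miR-532-3p (0.11), and the cause was not tested. Many of the 449 could not have moved by more. The Cp limits and leaving out the plate column select miRNAs and leave each ratio as it was. A single reference moved every ratio of a day by the same amount, at most 0.17, below the error of 0.29. The deposited table moved the mean ratio by 0.09 at D2 and -0.06 at D4. The 449 therefore do not measure how robust the ratios are. The counts of the report, 2 miRNAs in the test over both days, 2 in that of the day difference and 0 against PBS muscle, 3 lower and 0 higher on both days, 11 higher and 20 lower at D2, and 1 higher and 35 lower at D4, depended on the settings as follows. Counts not given stayed within 1.5 times. With the global mean, 1 (miR-1-3p) passed over both days, 1 was higher on both days, 11 were lower at D2, and 10 were higher and 16 lower at D4. With miR-24-3p alone, 0 passed over both days, 7 were lower on both, and 4 were higher and 33 lower at D2. With miR-23b-3p alone, 0 passed for the day difference and 5 were lower on both days. With miR-125b-5p alone, 0 passed over both days, 1 was lower on both, and 21 were higher and 8 lower at D2. With the deposited normalized table, 0 passed over both days and 4 for the day difference, 9 were lower at D2 and 0 higher at D4.

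With a Cp of at most 30, 1 (miR-1-3p) passed over both days and 0 for the day difference, 1 was lower on both days, 3 were higher and 8 lower at D2, and 0 higher and 12 lower at D4. With at most 34, 1 (miR-1-3p) passed over both days and 4 for the day difference, 10 were lower on both days, 19 were higher and 37 lower at D2, and 5 higher and 65 lower at D4. With no Cp filter, 9 passed over both days, 21 for the day difference and 11 against PBS muscle, 31 were lower and 4 higher on both days, 53 were higher and 82 lower at D2, and 20 higher and 154 lower at D4, with assays at the end of the range included. With the limit set in all 8 pools or a variance trend, 1 (miR-1-3p) passed over both days, with the second assays (2 higher at D4) 1 (miR-1949) passed, and 0 passed with no day term or with all 8 pools in the fit. At a size of 0.3, 18 were lower and 1 higher on both days, 27 higher and 42 lower at D2, and 6 higher and 55 lower at D4. At a size of 1, 0 were lower on both days, 2 higher and 0 lower at D2, and 0 higher and 9 lower at D4. Of the settings added after seeing the data, panel centring left 0 past the test over both days and 0 for the day difference, 11 lower at D2, and 8 higher and 14 lower at D4, and 5 rather than 3 lists had medians below that of all miRNAs on both days. Without plate column 17, 1 (miR-1949) passed over both days and 1 (miR-1900) for the day difference. With no moderation 0 passed over both days. limma was used throughout with adjusted p under 0.05, and its prior degrees of freedom differed between settings.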

Other observations

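The 3 small nuclear RNAs on the plates were not used in any comparison. U6 had Cp values of 31.74 in CDTX + SHAM D2, 32.83 in CDTX + SCI D2, 29.53 in CDTX + SHAM D4 and 29.41 in CDTX + SCI D4. Its log2 ratios on the scale of the 3 references were -1.12 at D2 and -0.28 at D4. RNU1A1 had ratios of -0.02 and -0.36, and RNU5G of 0.35 and -0.38. On that scale all 3 were below 0 at D4, as was the median miRNA of each panel.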
